A study of Homo sapiens with 9 samples.

Results

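RAB proteins are small GTPases that mark the membranes of the secretory and endocytic routes. An activator (GEF) loads a RAB with GTP, the active RAB recruits effectors that move, tether or fuse vesicles, and an inactivator (GAP) returns it to the GDP form, which GDP dissociation inhibitor takes off the membrane. Prenyl groups added by RAB geranylgeranyl transferase with an escort protein anchor the RAB, and in prostate luminal cells this machinery carries secretory proteins to the lumen. The RAB genes described here are the entries of the deposited table whose symbol is RAB followed by a number and at most 1 letter, 59 of 25142 entries. Symbols such as RABEP2 or RAB3IL1, which name partners of RAB proteins, fall outside this rule and are described at the end.

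The values come from polyadenylated RNA of LNCaP, an established human prostate cancer line that carries a working androgen receptor. All cells were first starved of steroids in charcoal-stripped serum for 24 h and then treated for 18 h. The 3 groups, of 3 biological replicates each, received 1 nM R1881 (a synthetic androgen) with 10 µM MEL-6 (a compound given by its code name), 1 nM R1881 alone, or DMSO vehicle. R1881 against vehicle measures the androgen effect, and R1881 with MEL-6 against R1881 (MEL-6 against R1881 for short) measures what MEL-6 adds to it. R1881 with MEL-6 was also set against vehicle (MEL-6 against vehicle), and no group received MEL-6 without R1881. All results are from this 1 cell line.

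KLK3, the androgen-induced gene of prostate-specific antigen, averaged 619 ± 7.46 RPKM with R1881 and MEL-6, 2219.7 ± 59.3 RPKM with R1881 and 308 ± 32.9 RPKM with vehicle (SD, n = 3 each). RPKM divides a gene's reads by its length in kilobases and by the size of the library. The 8 luminal prostate markers summed to between 1626 and 1685 RPKM with R1881 and MEL-6, between 4502 and 4714 RPKM with R1881, and between 1268 and 1328 RPKM with vehicle, and their part in the RAB results was not tested. The basal markers KRT5 and TP63, the leukocyte markers PTPRC and CD3E, and the endothelial markers CDH5 and PECAM1 were listed at 0 in all 9 libraries. The other basal marker, KRT14, reached 0.347 RPKM and the leukocyte marker CD14 reached 0.179 RPKM. The 6 fibroblast markers, of which COL1A2 was at 0, summed to between 3.295 and 3.74 RPKM with R1881 and MEL-6, between 2.202 and 2.279 RPKM with R1881, and between 2.607 and 3.254 RPKM with vehicle. The 3 neuroendocrine markers summed to between 0.718 and 0.91 RPKM, between 0.794 and 1.152 RPKM, and between 0.514 and 1.037 RPKM in the same order of groups. The part of these markers in the RAB results was not tested. Relative to vehicle replicate 1, depth was between 0.601 and 1.08 with R1881 and MEL-6, between 1.18 and 1.69 with R1881, and between 0.651 and 1.00 with vehicle, so the R1881 libraries give the most precise values for weakly expressed RAB genes.

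Promoter sequences are shown for the RAB genes on which the results below turn, which are RAB3B and RAB4A (largest gains with R1881), RAB27A and RAB27B (close relatives that moved oppositely) and RAB24 (higher with MEL-6). Each is the 250 bases before the RefSeq gene start on GRCh38.p14, read 5′ to 3′ on the gene's strand. The measured gene models are placed on hg19 and may start elsewhere. Whether a RefSeq start is also the start of the measured model was not checked, for RAB27A and RAB27B as for the others. RAB3B lies at chr1:51990701-51990950 (minus strand), RAB4A at chr1:229270861-229271110 (plus), RAB27A at chr15:55319124-55319373 (minus), RAB27B at chr18:54717607-54717856 (plus) and RAB24 at chr5:177303720-177303969 (minus). Capitals mark every match on either strand to the GC box GGGCGG, a site read by SP-family factors, and to the E-box CACGTG, a site read by MYC and related factors.
RAB3B: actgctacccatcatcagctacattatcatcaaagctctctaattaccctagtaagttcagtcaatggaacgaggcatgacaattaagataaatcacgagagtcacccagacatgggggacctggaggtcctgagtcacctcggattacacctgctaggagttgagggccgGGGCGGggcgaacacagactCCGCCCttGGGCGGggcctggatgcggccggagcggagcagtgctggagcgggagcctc
RAB4A: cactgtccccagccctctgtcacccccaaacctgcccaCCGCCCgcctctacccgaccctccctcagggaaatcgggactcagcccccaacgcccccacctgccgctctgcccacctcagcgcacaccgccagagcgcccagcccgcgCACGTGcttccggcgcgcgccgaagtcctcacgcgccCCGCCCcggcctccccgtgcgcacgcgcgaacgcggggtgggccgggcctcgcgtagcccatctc
RAB27A: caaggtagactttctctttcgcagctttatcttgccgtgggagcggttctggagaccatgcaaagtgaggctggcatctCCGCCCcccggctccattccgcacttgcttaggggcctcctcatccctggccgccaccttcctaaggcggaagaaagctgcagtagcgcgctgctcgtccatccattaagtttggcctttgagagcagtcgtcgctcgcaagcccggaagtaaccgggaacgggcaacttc
RAB27B: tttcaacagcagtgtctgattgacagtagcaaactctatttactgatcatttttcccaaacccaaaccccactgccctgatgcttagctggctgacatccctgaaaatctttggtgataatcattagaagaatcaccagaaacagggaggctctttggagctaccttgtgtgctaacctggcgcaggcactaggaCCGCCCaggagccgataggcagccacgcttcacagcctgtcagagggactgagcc
RAB24: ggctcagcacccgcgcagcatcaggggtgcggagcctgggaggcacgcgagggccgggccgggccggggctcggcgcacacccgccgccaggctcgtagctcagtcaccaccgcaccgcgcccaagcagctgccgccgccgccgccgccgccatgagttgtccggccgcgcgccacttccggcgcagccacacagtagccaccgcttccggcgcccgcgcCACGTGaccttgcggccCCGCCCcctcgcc

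The 5 windows differed in base composition, with a GC content of 56.8% for RAB3B, 75.2% for RAB4A, 58.8% for RAB27A, 50.4% for RAB27B and 78.4% for RAB24, against a median of 58% over all RefSeq promoters. RAB3B carried 3 GC boxes, all in the part nearest the gene start, and no E-box. RAB4A carried 2 GC boxes and 1 E-box, and RAB24 carried 1 of each close to the gene start. RAB27A and RAB27B each carried 1 GC box, at different distances from the RefSeq start. RefSeq windows were matched for 46 of the 59 RAB genes. A GC box was present in 37 of these 46 (80.4%), against 42.6% of all 35116 promoters, and an E-box in 5 (RAB4A, RAB5A, RAB21, RAB24 and RAB31, 10.9%), against 6.34%. The 35116 promoters were not matched to the RAB genes by gene class, expression or GC content. Whether these differences are particular to RAB genes was not tested. The full androgen response element, AGAACA and TGTTCT separated by any 3 bases, was in none of the 46 windows and in 1 of all promoters. Its single hexamer AGAACA, searched on both strands, was in 4 of the 46 (RAB2B, RAB13, RAB23 and RAB40B, 8.7%), against 12.4% of all promoters. The cyclic AMP element TGACGTCA was in RAB25 only among the 46 (2.17%), against 1.65%, and the ATF4 composite element TTGCATCA was in none, against 0.772%. These letters describe the windows and say nothing about which factors were bound.

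Across the 9 libraries the most abundant RAB messages, per length of gene model, belonged to the general transport routes. RAB7A, which directs late endosomes to lysosomes, had 159.8, 142 and 157 RPKM with R1881 and MEL-6, 124, 134 and 130.1 RPKM with R1881, and 142, 135 and 139.7 RPKM with vehicle. Its 3 libraries with MEL-6 were all above the 3 R1881 libraries. RAB1B, which carries cargo out of the endoplasmic reticulum, averaged 138 RPKM over all libraries, and RAB11A of recycling endosomes averaged 113 RPKM. The early-endosome RABs followed. RAB5C had 83.8, 79.5 and 91.0 RPKM with R1881 and MEL-6, 87.9, 92.2 and 101 RPKM with R1881, and 88.5, 81.4 and 85.4 RPKM with vehicle. RAB5B had 75.3, 81.4 and 82.5 RPKM with R1881 and MEL-6, 85.7, 83.9 and 89.1 RPKM with R1881, and 74.4, 73.6 and 73.5 RPKM with vehicle. RAB5C overlapped between all groups, and RAB5B was above vehicle in all R1881 libraries. At the other end, 8 of the 59 genes did not reach 0.5 RPKM in 3 libraries and were not tested, which left 51.

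The summed level of all 59 genes averaged 1548 ± 44.6 RPKM with R1881 and MEL-6, 1695 ± 27.9 RPKM with R1881 and 1515 ± 9.96 RPKM with vehicle (SD, n = 3 each). In such bulk RNA, fewer cells of a kind and less RNA per cell cannot be told apart. The composition of the sum differed between groups. Genes of the late endosome, lysosome and autophagy made up 14.6% ± 0.421 of it with R1881 and MEL-6, 10.1% ± 0.37 with R1881 and 12.65% ± 0.075 with vehicle. ER and Golgi genes made up 24.2% ± 0.316 with R1881 and MEL-6, 27.5% ± 0.424 with R1881 and 26.4% ± 0.486 with vehicle. Early endosome genes made up 22.7% ± 0.242, 25.4% ± 0.344 and 22.0% ± 0.123 in the same order of groups. The recycling genes averaged 27.6% ± 0.343, 27.4% ± 0.136 and 29.2% ± 0.355 in that order, and the regulated secretion genes 7.55% ± 0.4, 6.85% ± 0.139 and 6.73% ± 0.218. Single abundant genes weighed heavily in these shares, so a share does not stand for every gene of its route. RAB4A alone averaged 94.15 RPKM with R1881 and 34.9 RPKM with vehicle, while the early endosome genes summed to 429.8 and 333.6 RPKM. RAB1B alone averaged 176.8 and 127.8 RPKM in these groups, while the ER and Golgi genes summed to 466 and 400.6 RPKM.

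**Figure D1:**
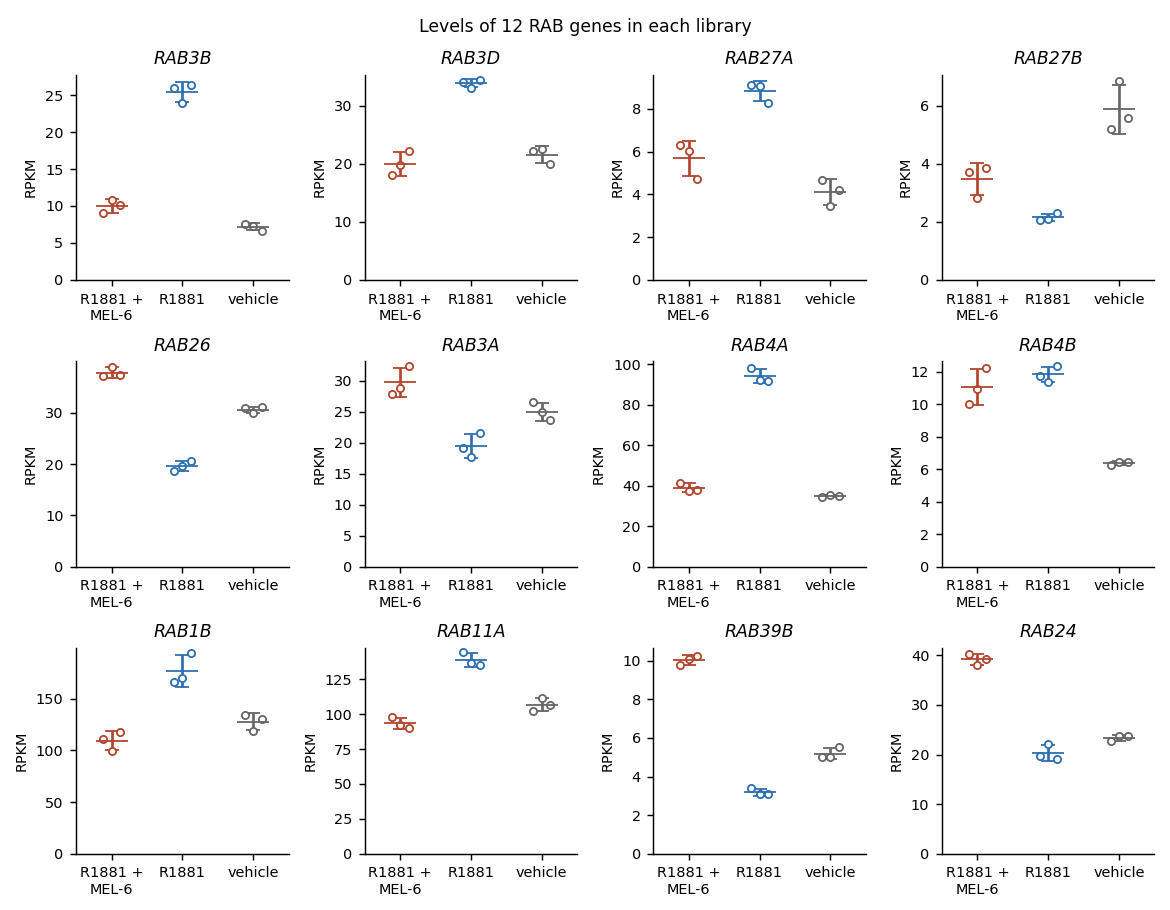
RPKM of 12 RAB genes in each library, on linear axes from 0, with 3 circles per group (R1881 with MEL-6, R1881, vehicle), a bar at the mean and whiskers of 1 SD. RAB3B and RAB4A stood highest in the R1881 libraries, and RAB24 and RAB39B in the libraries with MEL-6.

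Genes were called where the limma adjusted p over all 13295 tested genes was under 0.05. R1881 against vehicle called 29 of the 51 tested RAB genes, 15 higher and 14 lower, while 45.8% of all tested genes were called, 14.5% higher and 31.3% lower. R1881 with MEL-6 against R1881 called 27 of 51, 16 higher and 11 lower, against 52.0% of all tested genes, 31.4% higher and 20.6% lower. R1881 with MEL-6 against vehicle called 20 of 51, 13 higher and 7 lower, against 38.0% of all tested genes, 17.2% higher and 20.8% lower. In the comparison of R1881 with MEL-6 against R1881 and in that with MEL-6 against vehicle, the share of RAB genes called was thus near that of all genes. The 3 comparisons share libraries in pairs, so their values are given side by side and not as independent evidence.

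The changes of most RAB genes were small. With R1881 against vehicle, 4 called RAB genes changed at least 2-fold, 3 higher and 1 lower, as did 4.57% of all tested genes, 2.56% higher and 2.02% lower. With MEL-6 against R1881, 3 did, 1 higher and 2 lower, as did 5.96% of all tested genes, 3.59% higher and 2.37% lower. With MEL-6 against vehicle, none of the 20 called RAB genes did, against 2.38% of all tested genes, 1.34% higher and 1.04% lower. The weakly expressed RAB37 is not in these counts. With MEL-6 against R1881 it was called higher with a log2 change of 0.72, while its ratio of means was 2.49. The 3 libraries of each group did not overlap for 33 RAB genes with R1881 against vehicle (57.9% of all tested genes), for 31 with MEL-6 against R1881 (59.8%) and for 25 with MEL-6 against vehicle (46.5%). The median log2 change over the 51 genes was 0.01 with R1881 against vehicle, 0.04 with MEL-6 against R1881 and 0.11 with MEL-6 against vehicle, while the medians over all tested genes were -0.12, 0.075 and -0.012. The split depends on the scaling of the libraries. With median-of-ratios scaling, which moves the median of all genes for R1881 against vehicle to -0.02, the RAB calls were 22 higher and 8 lower in that comparison, and 13 higher and 18 lower with MEL-6 against R1881. All tested genes then had 2694 higher and 2635 lower, and 3397 higher and 3612 lower, under that scaling. With upper-quartile scaling, 16 RAB genes were called higher and 4 lower with MEL-6 against vehicle, beside 2769 higher and 2188 lower of all tested genes. No RAB gene called here changed sign under either scaling.

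**Figure D2:**
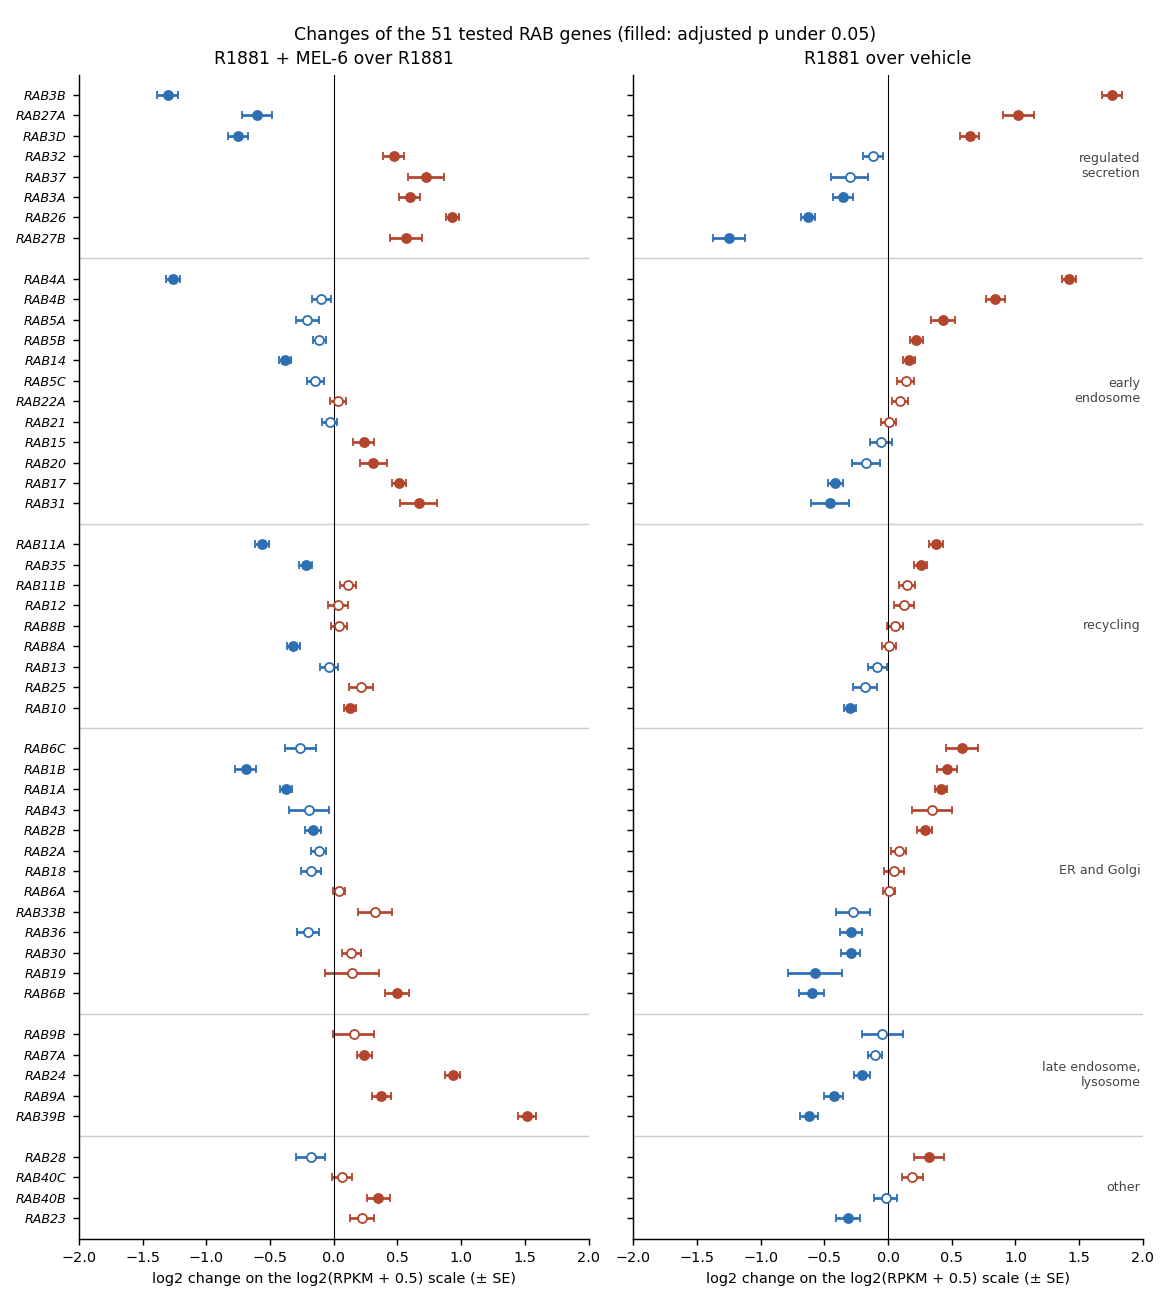
Log2 change on the log2(RPKM + 0.5) scale with its SE for the 51 tested RAB genes, grouped by route, in R1881 with MEL-6 over R1881 (left) and R1881 over vehicle (right); filled circles passed the limma test at an adjusted p under 0.05, and red and blue mark positive and negative changes. RAB3B and RAB4A lie farthest right for R1881 over vehicle and farthest left for MEL-6 over R1881, where RAB39B lies farthest right.

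The RAB genes of regulated secretion and lysosome-related organelles held several of the largest changes, though RAB39B and RAB4A lie outside this group. Of the 10 genes in this group 8 were tested, and with MEL-6 against R1881 limma called 5 of them higher (RAB3A, RAB26, RAB27B, RAB32 and RAB37) and 3 lower (RAB3B, RAB3D and RAB27A). With R1881 against vehicle the called genes were 3 higher (RAB3B, RAB3D and RAB27A) and 3 lower (RAB3A, RAB26 and RAB27B). With MEL-6 against vehicle 6 were higher and RAB27B was lower. Thus all 8, 75.0% and 87.5% of the tested genes were called in these comparisons, beside 52.0%, 45.8% and 38.0% of all tested genes in the same order. The group's median log2 change was 0.52 with MEL-6 against R1881, -0.21 with R1881 against vehicle and 0.33 with MEL-6 against vehicle.

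RAB3B, a RAB3 isoform of secretory vesicles, lies at chr1:52373628-52456436 on hg19. It had 9.02, 10.9 and 10.2 RPKM with R1881 and MEL-6, 26.0, 23.9 and 26.4 RPKM with R1881, and 7.54, 7.34 and 6.65 RPKM with vehicle. The 3 R1881 libraries stood well above the other 6, and the libraries with MEL-6 were all above vehicle. The log2 change was 1.76 ± 0.08 (SE) with R1881 against vehicle (limma adjusted p = 4.97e-08), a 3.54-fold ratio of means. It was -1.30 ± 0.08 with MEL-6 against R1881 (limma adjusted p = 4.54e-07), and 0.45 ± 0.08 with MEL-6 against vehicle (limma adjusted p = 0.00147).

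RAB3D, an isoform known from zymogen granules of exocrine glands, had 18.0, 19.8 and 22.2 RPKM with R1881 and MEL-6, 34.1, 33.1 and 34.3 RPKM with R1881, and 22.2, 22.5 and 19.9 RPKM with vehicle. The R1881 libraries were again the highest, while the libraries with MEL-6 overlapped vehicle. Its log2 change was 0.64 ± 0.08 with R1881 against vehicle (limma adjusted p = 7.59e-05) and -0.75 ± 0.08 with MEL-6 against R1881 (limma adjusted p = 1.97e-05). RAB3A, the synaptic vesicle isoform, went the other way and had 27.9, 28.9 and 32.4 RPKM with R1881 and MEL-6, 19.2, 17.8 and 21.6 RPKM with R1881, and 26.5, 25.0 and 23.6 RPKM with vehicle. Its R1881 libraries were the lowest and its libraries with MEL-6 the highest, without overlap between the 3 groups. RAB3A changed by -0.35 ± 0.08 with R1881 against vehicle, by 0.60 ± 0.08 with MEL-6 against R1881 (limma adjusted p = 0.000156), and by 0.24 ± 0.08 with MEL-6 against vehicle. The last of these calls was lost without vehicle replicate 2 or 3, R1881 replicate 1, or MEL-6 replicate 2 or 3, with limma adjusted p up to 0.122. RAB3C was listed at 0 in all 9 libraries.

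RAB27A and RAB27B, which dock secretory granules, melanosomes and exosome-forming bodies at the plasma membrane, moved oppositely. RAB27A, at chr15:55495792-55582001, had 6.29, 6.03 and 4.74 RPKM with R1881 and MEL-6, 9.13, 9.09 and 8.27 RPKM with R1881, and 4.66, 3.47 and 4.22 RPKM with vehicle. It was highest in the R1881 libraries. The log2 change was 1.02 ± 0.12 with R1881 against vehicle (limma adjusted p = 6.42e-05) and -0.60 ± 0.12 with MEL-6 against R1881 (limma adjusted p = 0.00179). The libraries with MEL-6 stayed above vehicle by 0.42 ± 0.12, a call that was lost without vehicle replicate 2 (limma adjusted p = 0.0684) or without MEL-6 replicate 1 (0.0559) or 2 (0.0643). RAB27B, at chr18:52495840-52557207, had 3.73, 2.84 and 3.87 RPKM with R1881 and MEL-6, 2.08, 2.11 and 2.31 RPKM with R1881, and 5.20, 6.84 and 5.60 RPKM with vehicle. Here the vehicle libraries were highest, the R1881 libraries lowest and the libraries with MEL-6 in between, with no overlap. RAB27B changed by -1.25 ± 0.13 with R1881 against vehicle (limma adjusted p = 2.06e-05), by 0.57 ± 0.13 with MEL-6 against R1881 (limma adjusted p = 0.0033) and by -0.68 ± 0.13 with MEL-6 against vehicle (limma adjusted p = 0.00195).

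RAB26, a RAB of secretory granules, had 37.1, 39.0 and 37.3 RPKM with R1881 and MEL-6, 18.6, 19.6 and 20.6 RPKM with R1881, and 30.8, 29.9 and 31.0 RPKM with vehicle. The libraries with MEL-6 were highest and the R1881 libraries lowest. Its log2 change was -0.63 ± 0.05 with R1881 against vehicle (limma adjusted p = 4.56e-06), 0.93 ± 0.05 with MEL-6 against R1881 (limma adjusted p = 2.4e-07) and 0.30 ± 0.05 with MEL-6 against vehicle (limma adjusted p = 0.0013). RAB37, known from mast cell granules, was weakly expressed and had 0.889, 0.854 and 1.21 RPKM with R1881 and MEL-6, 0.454, 0.398 and 0.331 RPKM with R1881, and 0.656, 0.523 and 0.624 RPKM with vehicle. All 3 libraries with MEL-6 were above the other 6. The log2 change with MEL-6 against R1881 was 0.72 ± 0.14 (limma adjusted p = 0.00183), and that with MEL-6 against vehicle was 0.42 ± 0.14. The call against vehicle was lost on leaving out any 1 library except MEL-6 replicate 1, with limma adjusted p between 0.0512 and 0.142. RAB32, which serves melanosome formation, was higher with MEL-6 by 0.47 against R1881 and by 0.35 against vehicle on the log2 scale. It changed by -0.12 with R1881 against vehicle, which was not called. RAB38, its close relative, was listed at 0 in every library.

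Among the 12 genes of the early endosome and its sorting routes, all tested, limma called 5 higher and 2 lower with R1881 against vehicle, 4 higher and 2 lower with MEL-6 against R1881, and 2 higher and 1 lower with MEL-6 against vehicle. That is 58.3%, 50% and 25.0% of the 12, beside 45.8%, 52.0% and 38.0% of all tested genes. RAB4A, which runs the fast recycling route from early endosomes to the surface, lies at chr1:229406879-229440128 on hg19. RAB4A had 41.6, 37.7 and 37.8 RPKM with R1881 and MEL-6, 98.3, 92.3 and 91.9 RPKM with R1881, and 34.3, 35.4 and 35.1 RPKM with vehicle. The R1881 libraries held more than any other library, and the libraries with MEL-6 lay close above vehicle. RAB4A changed by 1.42 ± 0.05 with R1881 against vehicle (limma adjusted p = 1.24e-08), a 2.70-fold ratio of means, and by -1.26 ± 0.05 with MEL-6 against R1881 (limma adjusted p = 3.29e-08). Against vehicle the change with MEL-6 was 0.16 ± 0.05, and this call was lost without any 1 of the vehicle libraries, without R1881 replicate 2 or 3 or without MEL-6 replicate 1, with limma adjusted p up to 0.105.

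RAB4B, the second RAB4 gene, had 10.0, 10.9 and 12.2 RPKM with R1881 and MEL-6, 11.8, 11.4 and 12.3 RPKM with R1881, and 6.26, 6.47 and 6.43 RPKM with vehicle. The libraries with MEL-6 and those with R1881 overlapped, and all 6 were above vehicle. RAB4B rose by 0.84 ± 0.07 with R1881 (limma adjusted p = 7.92e-06) and by 0.74 ± 0.07 with R1881 and MEL-6 (limma adjusted p = 3.57e-05), each against vehicle. Its change with MEL-6 against R1881 was -0.10 ± 0.07 (limma adjusted p = 0.295), which did not pass. RAB4A and RAB4B thus both gained with R1881, and only RAB4A was called lower with MEL-6, a contrast between genes that was not itself tested.

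RAB14, which works between the Golgi and endosomes, had 35.2, 35.0 and 35.8 RPKM with R1881 and MEL-6, 48.6, 45.3 and 45.0 RPKM with R1881, and 41.0, 41.9 and 40.3 RPKM with vehicle. The R1881 libraries were highest and the libraries with MEL-6 lowest. It changed by -0.38 ± 0.05 with MEL-6 against R1881 (limma adjusted p = 7.54e-05), by 0.17 ± 0.05 with R1881 against vehicle and by -0.22 ± 0.05 with MEL-6 against vehicle (limma adjusted p = 0.00508). The R1881 call was lost without R1881 replicate 1 (limma adjusted p = 0.0673). RAB31, which links the trans-Golgi network with endosomes, was weakly expressed and had 1.71, 1.25 and 1.37 RPKM with R1881 and MEL-6, 0.747, 0.874 and 0.559 RPKM with R1881, and 1.27, 1.28 and 0.992 RPKM with vehicle. The R1881 libraries were lowest, and the other groups overlapped. RAB31 rose by 0.67 ± 0.15 with MEL-6 against R1881 (limma adjusted p = 0.00343). It fell by 0.46 ± 0.15 with R1881 against vehicle (limma adjusted p = 0.0273), a call lost without vehicle replicate 1 or 2, without R1881 replicate 1 or 3, or with median-of-ratios scaling, at limma adjusted p up to 0.104.

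The remaining early endosome genes are given by their log2 changes. RAB17, of epithelial endosomes, was lower with R1881 against vehicle (-0.41 on the log2 scale) and higher with MEL-6 against R1881 (0.51). The fusion regulators RAB5A and RAB5B were higher with R1881 against vehicle (0.43 and 0.22), and neither was called with MEL-6 against R1881 (-0.21 and -0.11). RAB15 and RAB20 were called higher with MEL-6 against R1881 (0.23 and 0.31). Both of these calls were lost without R1881 replicate 1 or 2 or without MEL-6 replicate 3, with limma adjusted p up to 0.116, and under median-of-ratios scaling. RAB15 also lost it without vehicle replicate 1, R1881 replicate 3 or MEL-6 replicate 2, and RAB20 without MEL-6 replicate 1. Without rescaling, RAB5C, RAB21 and RAB22A were called in none of the 3 comparisons. Under median-of-ratios scaling RAB5C was called higher with R1881 against vehicle (limma adjusted p = 0.012) and lower with MEL-6 against R1881 (0.0139). That scaling also called RAB22A higher with R1881 against vehicle (0.0287), and RAB5A and RAB5B lower with MEL-6 against R1881 (0.026 and 0.00517).

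Of the 9 genes of recycling and polarised membrane delivery, limma called RAB8A, RAB11A and RAB35 lower and RAB10 higher with MEL-6 against R1881. With R1881 against vehicle RAB11A and RAB35 were higher and RAB10 lower, and with MEL-6 against vehicle RAB11B was higher and RAB8A, RAB10 and RAB11A were lower. The shares called, 44.4% with MEL-6 against R1881, 33.3% with R1881 against vehicle and 44.4% with MEL-6 against vehicle, stood beside 52.0%, 45.8% and 38.0% of all tested genes. RAB11A, the main RAB of recycling endosomes, had 98.0, 92.5 and 90.3 RPKM with R1881 and MEL-6, 144, 136 and 135 RPKM with R1881, and 102, 112 and 106 RPKM with vehicle. Its R1881 libraries were the highest, and its libraries with MEL-6 were all below vehicle. RAB11A changed by 0.38 ± 0.05 with R1881 against vehicle (limma adjusted p = 0.000272), by -0.56 ± 0.05 with MEL-6 against R1881 (limma adjusted p = 1.23e-05) and by -0.19 ± 0.05 with MEL-6 against vehicle (limma adjusted p = 0.0191). The call against vehicle was lost without vehicle replicate 2 or MEL-6 replicate 2 or 3 (limma adjusted p between 0.0562 and 0.0752), and under upper-quartile scaling (0.0761).

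RAB8A, which delivers membrane to cilia and to the cell surface, had 33.1, 31.4 and 31.6 RPKM with R1881 and MEL-6, 37.8, 40.3 and 42.0 RPKM with R1881, and 41.7, 39.0 and 38.9 RPKM with vehicle. The libraries with MEL-6 were lowest, and those of R1881 and vehicle overlapped. RAB8A changed with MEL-6 by -0.32 ± 0.05 against R1881 (limma adjusted p = 0.000742) and by -0.31 ± 0.05 against vehicle (limma adjusted p = 0.0015), while R1881 against vehicle gave 0.01 ± 0.05 (limma adjusted p = 0.944). RAB10, which moves glucose transporter vesicles, fell with R1881 against vehicle (-0.30) and with MEL-6 against vehicle (-0.17). Its rise with MEL-6 against R1881 (0.12) was lost without any 1 library other than R1881 replicate 2 and under median-of-ratios scaling, where limma adjusted p was 0.492. The call of RAB10 against vehicle was lost without MEL-6 replicate 2 (limma adjusted p = 0.0568) and under upper-quartile scaling (0.0682). RAB35, an endocytic recycling RAB, was higher with R1881 against vehicle (0.26) and lower with MEL-6 against R1881 (-0.22). Without rescaling, RAB8B, RAB12, RAB13 and RAB25 were called in no comparison. Under median-of-ratios scaling RAB11B (limma adjusted p = 0.00731) and RAB12 (0.0444) were called higher with R1881 against vehicle. Upper-quartile scaling also called RAB11B in that comparison (0.0455), and RAB25 higher with MEL-6 against R1881 (0.0385).

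In the ER and Golgi group 13 of 16 genes were tested. With R1881 against vehicle 4 were called higher (RAB1A, RAB1B, RAB2B and RAB6C) and 4 lower (RAB6B, RAB19, RAB30 and RAB36). With MEL-6 against R1881 RAB1A, RAB1B and RAB2B were lower and RAB6B was higher, and with MEL-6 against vehicle only RAB1B and RAB36 were called, both lower. Called were thus 61.5%, 30.8% and 15.4% of the tested genes in this order, beside 45.8%, 52.0% and 38.0% of all tested genes. RAB1B, which starts transport from the endoplasmic reticulum to the Golgi, had 111, 99.2 and 118 RPKM with R1881 and MEL-6, 166, 170.4 and 194 RPKM with R1881, and 134, 119 and 130.4 RPKM with vehicle. The R1881 libraries were highest, and the libraries with MEL-6 were below vehicle by a small margin. RAB1B rose by 0.46 ± 0.08 with R1881 (limma adjusted p = 0.000973) and fell by 0.69 ± 0.08 with MEL-6 against R1881 (limma adjusted p = 5.23e-05). Against vehicle its change with MEL-6 was -0.23 ± 0.08 (limma adjusted p = 0.0482). That call was lost under both other scalings and without vehicle replicate 1 or 3, R1881 replicate 1 or 2, or MEL-6 replicate 1 or 2, with limma adjusted p up to 0.17. RAB1A, its close relative, moved likewise by 0.42 with R1881 against vehicle and by -0.37 with MEL-6 against R1881.

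RAB6B, a Golgi RAB known for its expression in neurons, had 7.77, 9.46 and 9.89 RPKM with R1881 and MEL-6, 6.21, 5.94 and 6.56 RPKM with R1881, and 10.6, 9.61 and 8.99 RPKM with vehicle. Its R1881 libraries were below the other 6, which overlapped. RAB6B fell by 0.60 ± 0.10 with R1881 against vehicle (limma adjusted p = 0.000533) and rose by 0.50 ± 0.10 with MEL-6 against R1881 (limma adjusted p = 0.00143). RAB6A, the widely expressed isoform, was called in no comparison. RAB6C, a retrocopy nearly identical to RAB6A, had 2.94, 2.73 and 2.58 RPKM with R1881 and MEL-6, 3.35, 3.31 and 3.52 RPKM with R1881, and 2.0, 2.66 and 1.74 RPKM with vehicle. Its R1881 libraries were highest, by 0.58 ± 0.12 against vehicle (limma adjusted p = 0.00318), but reads of RAB6A could be counted to it and its values are uncertain.

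RAB36, a RAB of the Golgi group, had 4.79, 5.41 and 5.76 RPKM with R1881 and MEL-6, 5.94, 6.12 and 6.45 RPKM with R1881, and 8.40, 7.51 and 7.12 RPKM with vehicle. Vehicle was highest and the libraries with MEL-6 lowest, without overlap. RAB36 fell by 0.49 ± 0.09 with MEL-6 against vehicle (limma adjusted p = 0.00143). Its fall with R1881 against vehicle (-0.29 ± 0.09) was lost without vehicle replicate 1, without R1881 replicate 1 or 2, or with median-of-ratios scaling, with limma adjusted p up to 0.101. RAB19 had 2.75, 3.77 and 2.57 RPKM with R1881 and MEL-6, 2.04, 2.80 and 3.29 RPKM with R1881, and 5.15, 4.91 and 2.92 RPKM with vehicle. Vehicle replicate 3 lay among the R1881 libraries, so the groups overlapped. Its fall with R1881 against vehicle (-0.57 ± 0.21, limma adjusted p = 0.0482) was lost on leaving out any of 5 libraries (vehicle replicate 1 or 2, R1881 replicate 1 or 2, or MEL-6 replicate 1), with limma adjusted p up to 0.172, and under median-of-ratios (0.0992) and upper-quartile scaling (0.0517). RAB30 was called lower with R1881 against vehicle (-0.29), a call lost under median-of-ratios scaling (limma adjusted p = 0.0712). RAB2B, called lower with MEL-6 against R1881 (-0.16), lost that call without any 1 library other than MEL-6 replicate 2, with limma adjusted p up to 0.156, and under upper-quartile scaling (0.113). Without rescaling, RAB2A, RAB18, RAB33B and RAB43 were called in no comparison, and RAB2A overlaps another entry, LOC100505553, that reached 28.95 RPKM. Under median-of-ratios scaling RAB2A (limma adjusted p = 0.0221) and RAB43 (0.0496) were called higher with R1881 against vehicle. RAB2A (0.0134) and RAB18 (0.0206) were then called lower with MEL-6 against R1881. Upper-quartile scaling called RAB33B higher with MEL-6 against R1881 (0.0491).

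Of the late endosome, lysosome and autophagy genes 5 of 6 were tested, and with MEL-6 against R1881 limma called 4 of them higher (RAB7A, RAB9A, RAB24 and RAB39B) and none lower. With R1881 against vehicle 3 were lower (RAB9A, RAB24 and RAB39B) and none higher, and with MEL-6 against vehicle RAB24 and RAB39B were higher. The shares called were 80%, 60% and 40% of the 5, beside 52.0%, 45.8% and 38.0% of all tested genes. The 4 calls with MEL-6 against R1881 held under both other scalings. RAB39B, whose loss causes an X-linked intellectual disability with parkinsonism, lies at chrX:154487526-154493852 on hg19. RAB39B had 9.78, 10.1 and 10.2 RPKM with R1881 and MEL-6, 3.39, 3.09 and 3.09 RPKM with R1881, and 5.00, 5.02 and 5.51 RPKM with vehicle. The libraries with MEL-6 were the highest and the R1881 libraries the lowest, with vehicle between them and no overlap. Its log2 change was 1.52 ± 0.07 with MEL-6 against R1881 (limma adjusted p = 6.45e-08), a 3.15-fold ratio of means. It was -0.62 ± 0.07 with R1881 against vehicle (limma adjusted p = 5.07e-05) and 0.90 ± 0.07 with MEL-6 against vehicle (limma adjusted p = 6.91e-06).

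RAB24, a RAB linked to autophagy, lies at chr5:176728199-176730744 on hg19. RAB24 had 40.3, 38.0 and 39.4 RPKM with R1881 and MEL-6, 19.7, 22.1 and 19.2 RPKM with R1881, and 22.7, 23.8 and 23.8 RPKM with vehicle. All libraries with MEL-6 stood far above the other 6. RAB24 rose by 0.93 ± 0.06 with MEL-6 against R1881 (limma adjusted p = 7.08e-07) and by 0.73 ± 0.06 with MEL-6 against vehicle (limma adjusted p = 9.61e-06). Its small fall with R1881 against vehicle (-0.20 ± 0.06, limma adjusted p = 0.0191) was lost without vehicle replicate 2 or 3, without R1881 replicate 1 or 3, or with median-of-ratios scaling, at limma adjusted p up to 0.253. RAB7A rose with MEL-6 against R1881 by 0.24 ± 0.06 (limma adjusted p = 0.0057) and was not called against vehicle (0.14 ± 0.06, limma adjusted p = 0.0869). Median-of-ratios and upper-quartile scaling did call RAB7A higher against vehicle (limma adjusted p = 0.0464 and 0.0281). RAB9A, which returns receptors from late endosomes to the Golgi, fell with R1881 against vehicle (-0.43) and rose with MEL-6 against R1881 (0.37). RAB9B, a weakly expressed relative, was called in no comparison.

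The last group holds RAB23, RAB28, RAB42 and the RAB40 genes, of which 4 of 6 were tested. Limma called 1 with MEL-6 against R1881, 2 with R1881 against vehicle and 2 with MEL-6 against vehicle, or 25.0%, 50% and 50%, beside 52.0%, 45.8% and 38.0% of all tested genes. RAB40B, of the RAB40 family that joins a ubiquitin ligase, was higher with MEL-6 by 0.35 against R1881 and by 0.33 against vehicle. RAB40C was higher with MEL-6 against vehicle by 0.26. The calls against vehicle were lost without vehicle replicate 3 for both genes (limma adjusted p = 0.059 for RAB40B and 0.0755 for RAB40C), and for RAB40C also without vehicle replicate 2 or MEL-6 replicate 1 or 3. RAB23, a regulator of hedgehog signalling, fell with R1881 against vehicle (-0.32) and RAB28, a RAB of the cilium, rose (0.32). RAB23 lost its call without vehicle replicate 2 or R1881 replicate 1 or 3 (limma adjusted p up to 0.105 with median-of-ratios scaling), and RAB28 without any 1 vehicle or R1881 library or MEL-6 replicate 2 (up to 0.117).

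The 8 untested genes were at or near 0. RAB3C and RAB38 were listed at 0 in every library. RAB40A stayed between 0.262 and 0.400 RPKM in all 9 libraries, and RAB33A, RAB34, RAB41 and RAB42 stayed below 0.5 RPKM. RAB39, the relative of RAB39B, had 0.0817, 0.0909 and 0.104 RPKM with R1881 and MEL-6, 0.319, 0.202 and 0.321 RPKM with R1881, and 0, 0 and 0 RPKM with vehicle. All its vehicle libraries were listed at 0 and its R1881 libraries were the highest, whereas RAB39B was lowest in the R1881 libraries.

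Close relatives within the family were compared as ratios within a library, which do not depend on how libraries are scaled. RAB27A over RAB27B was 1.69, 2.12 and 1.22 with R1881 and MEL-6, 4.40, 4.31 and 3.59 with R1881, and 0.897, 0.507 and 0.753 with vehicle. RAB27A thus had the higher RPKM of the pair in all libraries with androgen and the lower in all vehicle libraries. Whether such a ratio lies above 1 depends on the lengths of the gene models, which are not given. Only its change between groups can therefore be read, not which message is more abundant. RAB3B over RAB3A was 0.323, 0.377 and 0.314 with R1881 and MEL-6, 1.35, 1.35 and 1.22 with R1881, and 0.284, 0.294 and 0.281 with vehicle. The RPKM of RAB3B exceeded that of RAB3A in the 3 libraries with R1881 alone and in no other. RAB4A over RAB4B averaged 3.56 ± 0.531 with R1881 and MEL-6, 7.96 ± 0.466 with R1881 and 5.47 ± 0.0164 with vehicle (SD, n = 3 each). RAB11A over RAB11B averaged 1.29 ± 0.0573 with R1881 and MEL-6, 2.08 ± 0.187 with R1881 and 1.77 ± 0.189 with vehicle. For both pairs the libraries with MEL-6 gave the lowest ratios of all 9. Other pairs were computed too. RAB3D over RAB3A, RAB3B over RAB3D and RAB6A over RAB6B were highest in the R1881 libraries. With MEL-6, RAB8A over RAB8B was lowest and RAB1A over RAB1B highest. RAB2A over RAB2B, RAB5A over RAB5B and RAB9A over RAB9B overlapped between MEL-6 and R1881. RAB5A over RAB5B averaged 0.410 with R1881 and MEL-6, 0.433 with R1881 and 0.373 with vehicle. The ratios are given as a description, without a test.

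**Figure D3:**
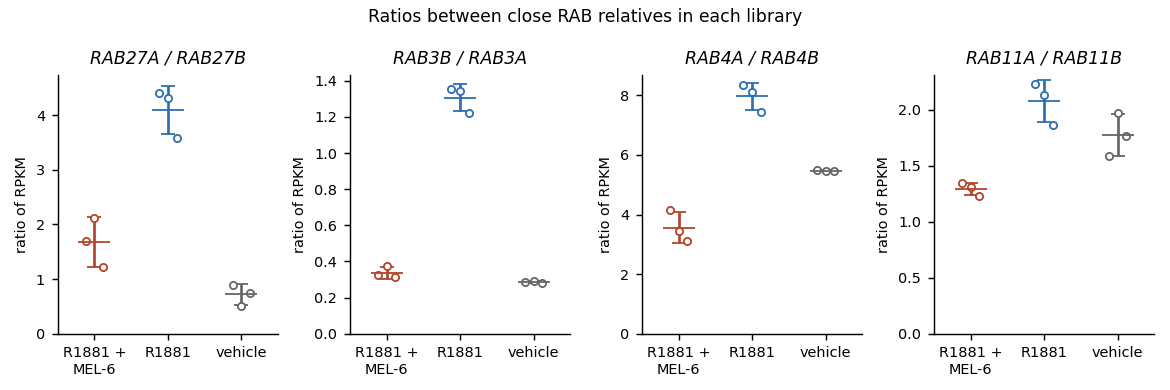
Ratio of RPKM between close RAB relatives in each library, on linear axes from 0, with 3 circles per group (R1881 with MEL-6, R1881, vehicle), a bar at the mean and whiskers of 1 SD. RAB27A over RAB27B lies above 1 in all libraries with R1881 and below 1 in all vehicle libraries, and RAB3B over RAB3A lies above 1 in the 3 libraries with R1881 alone. Whether a ratio passes 1 depends on the lengths of the gene models, which are not given.

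The genes that attach RAB proteins to membranes and remove them formed a list of 8, all tested. With MEL-6 against R1881 limma called 2 higher and 2 lower, with R1881 against vehicle 2 higher and 3 lower, and with MEL-6 against vehicle 1 higher and 2 lower. These calls made up 50%, 62.5% and 37.5% of the list, beside 52.0%, 45.8% and 38.0% of all tested genes. The escort proteins CHM and CHML, which present RABs to the prenyl transferase, moved oppositely. CHM had 6.55, 7.11 and 6.26 RPKM with R1881 and MEL-6, 9.03, 8.70 and 8.48 RPKM with R1881, and 6.47, 6.26 and 6.35 RPKM with vehicle. CHML had 6.07, 6.22 and 6.32 RPKM with R1881 and MEL-6, 4.74, 4.31 and 3.96 RPKM with R1881, and 7.81, 8.51 and 8.19 RPKM with vehicle. CHM was highest and CHML lowest in the R1881 libraries. CHM changed by 0.43 and CHML by -0.84 with R1881 against vehicle, and by -0.37 and 0.47 with MEL-6 against R1881. RABGGTB, the catalytic subunit of that transferase, rose with MEL-6 against R1881 by 0.48 ± 0.09 (limma adjusted p = 0.00149) and fell with R1881 against vehicle by 0.27 ± 0.09 (limma adjusted p = 0.0344). GDI2, which extracts GDP-bound RABs, averaged 115 ± 3.51 RPKM with R1881 and MEL-6, 132 ± 2.67 RPKM with R1881 and 147 ± 4.73 RPKM with vehicle (SD, n = 3 each), and was called lower in all 3 comparisons. The calls with R1881 against vehicle were lost without vehicle replicate 2 or 3 or R1881 replicate 3 for both RABGGTB and GDI2, without R1881 replicate 2 for RABGGTB, and under median-of-ratios scaling (limma adjusted p = 0.21 for RABGGTB and 0.47 for GDI2). The RABGGTB call was also lost under upper-quartile scaling (0.054).

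Of 33 activator genes, 29 were tested, with 11 called higher and 3 lower with MEL-6 against R1881, 6 higher and 9 lower with R1881 against vehicle, and 8 higher and 3 lower with MEL-6 against vehicle. The shares called were 48.3%, 51.7% and 37.9%, beside 52.0%, 45.8% and 38.0% of all tested genes. The median log2 changes of the activators were 0.10, -0.08 and 0.13 in that order. RAB3IL1, an activator of RAB8 and RAB3A, had 8.83, 8.58 and 10.2 RPKM with R1881 and MEL-6, 3.34, 3.62 and 3.84 RPKM with R1881, and 4.14, 3.35 and 3.42 RPKM with vehicle. All 3 libraries with MEL-6 were far above the other 6, which overlapped. RAB3IL1 rose by 1.24 ± 0.10 with MEL-6 against R1881 (limma adjusted p = 3.25e-06) and by 1.23 ± 0.10 with MEL-6 against vehicle (limma adjusted p = 7.88e-06), while R1881 against vehicle gave -0.01 ± 0.10 (limma adjusted p = 0.947). MON1B, part of the RAB7 activator, went the other way with MEL-6 against R1881, at -0.43 ± 0.09 (limma adjusted p = 0.00177), and gained 0.59 ± 0.09 with R1881 against vehicle (limma adjusted p = 0.00031).

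Of the 37 inactivator genes 36 were tested, with 7 called higher and 7 lower with MEL-6 against R1881, 9 higher and 7 lower with R1881 against vehicle, and 4 higher and none lower with MEL-6 against vehicle. Inactivators were thus called in 38.9%, 44.4% and 11.1% of cases, beside 52.0%, 45.8% and 38.0% of all tested genes. The largest changes in this list were those of TBC1D1, TBC1D4 and TBC1D8. TBC1D1, which with TBC1D4 controls RABs on glucose transporter vesicles, had 10.5, 11.3 and 11.4 RPKM with R1881 and MEL-6, 25.7, 25.4 and 27.5 RPKM with R1881, and 10.2, 9.48 and 8.91 RPKM with vehicle. TBC1D4 had 6.62, 6.48 and 5.95 RPKM with R1881 and MEL-6, 15.1, 14.4 and 14.8 RPKM with R1881, and 6.72, 6.49 and 5.32 RPKM with vehicle. TBC1D8, a less studied member of the family, had 4.29, 3.32 and 3.29 RPKM with R1881 and MEL-6, 9.98, 10.4 and 10.8 RPKM with R1881, and 3.60, 3.73 and 3.46 RPKM with vehicle. For each of the 3 genes the R1881 libraries stood above the other 6. TBC1D1 rose by 1.41 ± 0.07, TBC1D4 by 1.20 ± 0.09 and TBC1D8 by 1.41 ± 0.10 with R1881 against vehicle (limma adjusted p = 6.19e-08, 1.67e-06 and 1.11e-06). With MEL-6 against R1881 they changed by -1.21 ± 0.07, -1.16 ± 0.09 and -1.41 ± 0.10 (limma adjusted p = 2.09e-07, 1.88e-06 and 1.01e-06). TBC1D5, an inactivator of RAB7, averaged 20.8 ± 1.26 RPKM with R1881 and MEL-6, 13.2 ± 0.324 RPKM with R1881 and 20.4 ± 1.01 RPKM with vehicle.

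Of the 53 effector genes 46 were tested. With MEL-6 against R1881 20 were called higher and 12 lower, with R1881 against vehicle 14 higher and 14 lower, and with MEL-6 against vehicle 13 higher and 3 lower. Of the tested effectors 69.6%, 60.9% and 34.8% were called, beside 52.0%, 45.8% and 38.0% of all tested genes. The effectors of RAB27 held several of the largest changes. SYTL2, which tethers RAB27 vesicles at the plasma membrane, had 3.86, 3.87 and 3.44 RPKM with R1881 and MEL-6, 0.395, 0.494 and 0.333 RPKM with R1881, and 2.68, 3.06 and 3.13 RPKM with vehicle. The R1881 libraries were far below the other 6. SYTL2 changed by -1.93 ± 0.11 with R1881 against vehicle (limma adjusted p = 2.55e-07) and by 2.22 ± 0.11 with MEL-6 against R1881 (limma adjusted p = 9.13e-08). EXPH5, another RAB27 effector, had 3.55, 3.57 and 3.51 RPKM with R1881 and MEL-6, 1.42, 1.15 and 1.27 RPKM with R1881, and 3.96, 4.21 and 3.69 RPKM with vehicle. It too was lowest with R1881, with a change of -1.32 ± 0.09 against vehicle (limma adjusted p = 1.18e-06), and rose by 1.18 ± 0.09 with MEL-6 against R1881 (limma adjusted p = 2.35e-06). MLPH, which ties RAB27A to myosin Va on melanosomes, had 38.6, 36.1 and 33.7 RPKM with R1881 and MEL-6, 59.9, 61.4 and 55.2 RPKM with R1881, and 18.6, 20.7 and 20.9 RPKM with vehicle. The R1881 libraries were highest and the libraries with MEL-6 stood between them and vehicle. MLPH changed by 1.53 ± 0.07 with R1881 against vehicle (limma adjusted p = 4.93e-08), by -0.69 ± 0.07 with MEL-6 against R1881 (limma adjusted p = 1.63e-05) and by 0.83 ± 0.07 with MEL-6 against vehicle (limma adjusted p = 9.61e-06). Among the other RAB27 effectors, SYTL1 rose by 0.37 with R1881 against vehicle and by 0.53 with MEL-6 against R1881, and MYRIP changed by -0.53 and 0.23. SYTL4 and RPH3AL were not called in any comparison, and RPH3AL changed by 0.006 and 0.027 in the same order. The MYRIP call with MEL-6 against R1881 was lost without MEL-6 replicate 2 (limma adjusted p = 0.0573) and under median-of-ratios scaling (0.0846).

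Effectors of other RABs showed separate patterns. MICAL1, an actin-oxidising enzyme that binds RAB1 and RAB8, had 5.72, 5.14 and 4.73 RPKM with R1881 and MEL-6, 22.6, 22.8 and 21.2 RPKM with R1881, and 2.33, 1.89 and 2.88 RPKM with vehicle. It stood highest in the R1881 libraries, and its libraries with MEL-6 were above vehicle. MICAL1 changed by 3.0 ± 0.12 with R1881 against vehicle (limma adjusted p = 1.52e-08), a 9.39-fold ratio of means, and by -1.999 ± 0.12 with MEL-6 against R1881 (limma adjusted p = 3.25e-07). OPTN, a RAB8 effector and autophagy receptor, had 8.34, 7.48 and 7.81 RPKM with R1881 and MEL-6, 2.61, 2.44 and 2.48 RPKM with R1881, and 2.04, 2.69 and 2.53 RPKM with vehicle. All its libraries with MEL-6 were above the other 6, which overlapped. OPTN rose by 1.48 ± 0.10 with MEL-6 against R1881 (limma adjusted p = 7.8e-07) and by 1.52 ± 0.10 with MEL-6 against vehicle (limma adjusted p = 1.66e-06). RIMS1, a RAB3 effector of synaptic release sites, averaged 1.99 ± 0.226 RPKM with R1881 and MEL-6, 4.52 ± 0.116 RPKM with R1881 and 2.83 ± 0.0789 RPKM with vehicle, with the libraries with MEL-6 lowest. RIMS4, a smaller relative, was lowest in the R1881 libraries, with 1.01 ± 0.204 RPKM with R1881 and MEL-6, 0.213 ± 0.0277 RPKM with R1881 and 1.29 ± 0.195 RPKM with vehicle. RABEP2, which binds RAB5 and RAB4, changed by 0.67 with R1881 against vehicle and by -0.58 with MEL-6 against R1881.

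**Figure D4:**
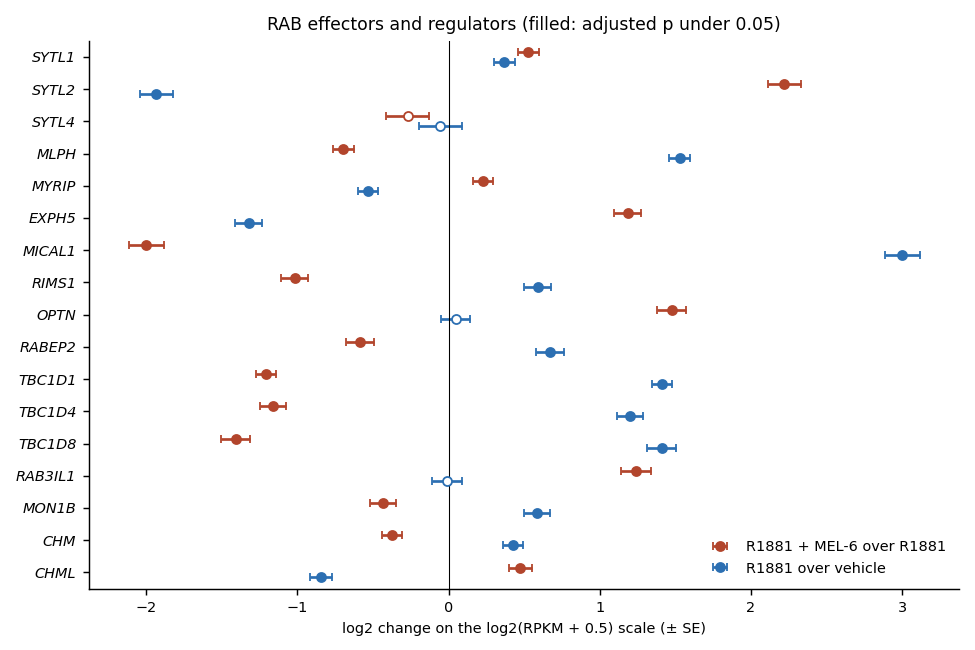
Log2 change with its SE on the log2(RPKM + 0.5) scale for named RAB effectors and regulators, in R1881 with MEL-6 over R1881 (red) and R1881 over vehicle (blue); filled circles passed the limma test at an adjusted p under 0.05. SYTL2 and MICAL1 lie farthest from 0, on opposite sides, and OPTN and RAB3IL1 lie near 0 for R1881 over vehicle.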

How the data were processed

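The 9 libraries hold polyadenylated RNA of LNCaP cells, 3 in each of 3 groups. Groups and replicate numbers came from the sample titles, and the library names in the sample descriptions tied each column of the table to its sample. The deposited values were RPKM made by the authors. GRCh37 (hg19) and CASAVA 1.8 are named per the submitters' processing notes, and the gene models, total reads and use of strand are not given in the sources used here. Depth is therefore given only relative to vehicle replicate 1, from the size of the steps between low values.

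A gene was tested where 3 or more libraries reached 0.5 RPKM (13295 genes), using limma-trend (limma 3.58.1, R 4.3.3) on log2(RPKM + 0.5), which understates the change of low genes. All 9 libraries were fitted as 3 group means (residual df 6, prior df 4.31), with Benjamini-Hochberg adjustment over all tested genes in each comparison. Calls are two-sided at an adjusted p under 0.05, and log2 changes are given with their SE. The code of the test was run on simulated data. That simulation had far fewer changed genes and no scaling difference between libraries, so it does not measure the error rate here. Where a symbol had an X and a Y entry (20 cases), the X entry was kept.

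The RAB genes, the lists of regulators and effectors and the naming rule were chosen with earlier results of these data known. The rule gives library values for up to 6 called RAB genes per direction and comparison with the largest changes and for the 5 most abundant. It adds up to 3 called members per direction of each regulator and effector list, in the comparisons of MEL-6 with R1881 and of R1881 with vehicle. Part of the list genes it gives are named, with SYTL1, SYTL4, MYRIP and RPH3AL added after their values were seen. The labels do not say whether same-numbered libraries were handled together. Deviations of same-numbered libraries from their group means correlated at -0.197 to 0.198, and those of different-numbered libraries at -0.18 to 0.187. No shared effect of the replicate number was thus detected, and the main fit has no pairing. Alternatives were another pseudocount (0.1 or 1), no filter or a filter at 1 RPKM, median-of-ratios or upper-quartile scaling, a replicate block, a fit of 2 groups, no intensity trend, and leaving out each library. Promoters are RefSeq's on GRCh38.p14, and gene coordinates are those of the deposited table on hg19.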

Additional observations from a re-analysis of the deposited data

How the results depend on the processing

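No called change of a RAB gene, or of a regulator or effector named in the text, changed sign under the alternatives run. Changes near 0 that were not called did in some settings, such as those of RAB3IL1 and SYTL4 with R1881 against vehicle, at 0.09 and 0.04 under median-of-ratios scaling (-0.01 and -0.05 without it). Losses of single calls are given above for left-out libraries and scalings, and some calls were also lost under other settings. A replicate block lost those of RAB37, RAB4A and RAB3A with MEL-6 against vehicle (limma adjusted p = 0.0677, 0.0593 and 0.0513). Without the filter, RAB28 lost its call with R1881 against vehicle (limma adjusted p = 0.0777). Some RAB changes that were not called became calls under another setting. Median-of-ratios scaling, for example, called RAB36 lower with MEL-6 against R1881 (limma adjusted p = 0.0168) and RAB40C higher with R1881 against vehicle (0.0132). The alternatives for the regulators and effectors were chosen after seeing the data. Counts of RAB genes called moved by more than 1.5 times in few settings, and the cause was not tested. With median-of-ratios scaling, 18 RAB genes were called lower with MEL-6 against R1881 (11 without it), and 8 RAB genes and 2635 of all tested genes were called lower with R1881 against vehicle (14 and 4155 without it). With upper-quartile scaling, 4 RAB genes were called lower with MEL-6 against vehicle (7 without it). Leaving out 1 library gave 9 to 14 RAB genes called lower with R1881 against vehicle, the lowest without R1881 replicate 1, and 4 to 7 called lower with MEL-6 against vehicle, the lowest without MEL-6 replicate 2. A replicate block gave 15 higher and 10 lower RAB genes with MEL-6 against R1881, 15 and 13 with R1881 against vehicle, and 10 and 7 with MEL-6 against vehicle. No shared effect of the replicate number was detected between groups. Values under about 0.5 RPKM rest on few reads, and absolute depth is unknown, so counting error could not be given. Replicates are 3 per group from 1 cell line. RAB2A remains uncertain because it overlaps another entry and strand use is not known. RAB6C remains uncertain because reads of RAB6A could be counted to it.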
